A study of Homo sapiens with 6 samples.

Results

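The genes described here are 10 genes of the ATF4 branch of the integrated stress response: ATF4, CEBPG, DDIT3, ATF3, PPP1R15A, ASNS, CHAC1, TRIB3, SESN2 and DDIT4. They were chosen by name as genes of this pathway, by matching the Ensembl identifiers of the deposited count table to symbols. All 10 were among its 58051 identifiers, and all 10 passed the filter that left 16974 genes for testing. The libraries came from DLD-1, a human colorectal adenocarcinoma line, in which both copies of TPR, a nuclear basket protein of the nuclear pore, carried an auxin-inducible degron with NeonGreen (AID-NeonGreen-TPR). The line was a genotyped clone, and the TIR1 receptor that auxin needs was expressed from the RCC1 locus in every library. All 6 cultures received Leptomycin B, which blocks the export receptor CRM1, at 200 nM for 3 h. The LMB group (3 libraries) received nothing else, and the LMB+auxin group (3 libraries) also received 1 mM auxin for the last 2 h. The comparison asked how RNA levels changed upon degradation of TPR while CRM1 export was blocked. Because both groups held Leptomycin B and no culture with auxin and an intact TPR was analysed here, the effect of Leptomycin B was not measured, and loss of TPR and auxin itself cannot be told apart.

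The integrated stress response begins when stress kinases phosphorylate the translation factor eIF2, which slows most protein synthesis while the ATF4 protein is made more efficiently from its existing RNA. ATF4 then binds DNA with partners such as C/EBPγ (CEBPG) and switches on genes for amino acid supply, for the further factors ATF3 and CHOP (DDIT3), and for PPP1R15A (GADD34), which brings a phosphatase back to eIF2 and ends the response. Since ATF4 is controlled largely at translation, the RNA measured here reports its targets more directly than the ATF4 protein.

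The 6 libraries held between 28261903 and 35992425 counts, and the 10 genes together took 0.0857% to 0.107% of them. TPR RNA, which carries the degron on its protein and so does not report protein loss, stood at 163, 157 and 180 CPM (counts scaled to library size by edgeR) in LMB and 192, 184 and 186 CPM in LMB+auxin (blocked log2 difference 0.17 ± 0.05, edgeR adjusted p = 0.0133; DESeq2 with the block, 0.101). Of 10 colon epithelium markers, 8 were tested, and CDX1 and CEACAM5 were near 0. The summed colon markers ranged from 7558 to 7915 CPM in LMB and from 7647 to 8056 CPM in LMB+auxin. Summed fibroblast, immune and endothelial markers never exceeded 5.50 CPM in a library. Libraries that shared a replicate number deviated together from their group means, with correlations of 0.54, 0.71 and 0.29 across genes. For each of the 10 genes the fit with the replicate number as a block is therefore given as well. Between groups, numbers 1 and 3 also correlated with each other, at 0.15 both ways. The libraries numbered 2 stood apart from the others in both groups, and values without them are given for the results that rest on them.

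The composite element that ATF4 and C/EBP factors bind, TGATGNAAN with N any base, was searched on both strands in RefSeq promoters of GRCh38.p14, each running from 250 bases before to 50 bases after a start. The stretches that held it are shown because 4 of the 10 genes held it in a promoter entry. For PPP1R15A the cAMP response element TGACGTCA, a palindrome bound by CREB and ATF factors, is shown because this gene separated the groups most clearly. Capitals mark the match, each line runs 5′ to 3′ on the strand of its gene, and in CHAC1 the element lies on the opposite strand, so its reverse complement is in capitals.
ASNS, chr7:97872458-97872486, minus strand: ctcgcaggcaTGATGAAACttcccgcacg
CHAC1, chr15:40953251-40953279, plus strand: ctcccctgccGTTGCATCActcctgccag
CEBPG, chr19:33374061-33374089, plus strand: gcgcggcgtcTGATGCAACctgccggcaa
ATF3, chr1:212565206-212565234, plus strand: aaggtcaggaTGATGGAAGgctgtcatat
PPP1R15A, chr19:48872353-48872380, plus strand: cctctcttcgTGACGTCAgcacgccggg

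The match began 68 bases before the RefSeq start in ASNS, 210 in CHAC1, 42 in CEBPG, 191 in ATF3 and 58 in PPP1R15A. In GENCODE 44, the ATF3 stretch lay 100 bases outside the annotated gene, and the CEBPG stretch in an intron of its canonical transcript. Those of ASNS, CHAC1 and PPP1R15A lay outside the canonical transcript and overlapped, flanks included, an untranslated part of another transcript. TGATGNAAN was present in 3.61% of 35116 promoters and in 4.45% of 27305 genes, TGATGCAA, which is contained in it, in 0.866% of promoters (here CHAC1 and CEBPG), and TGACGTCA in 1.85% of promoters. The 10 genes had 17 promoter entries, and a gene with more entries had more chances to match. A match is a description of these letters, and the absence of one in the other genes says nothing of the factor.

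Across the 10 genes, RNA levels differed little between LMB+auxin and LMB. PPP1R15A was 29.3% higher and ATF3 24.9% higher in LMB+auxin, CHAC1 was 20.2% lower, and the others differed by at most 16.4%, all from the fit with the replicate block. A gene was called changed at an adjusted p under 0.05 and a fold of at least 1.3, a log2 difference of 0.38. By edgeR's quasi-likelihood test without the block, 0 of the 10 genes were called, beside 0.00589% of all tested genes. With the block 0 were called as well, beside 1.19%. DESeq2 and limma-voom also called 0 of the 10. Before adjustment, p was under 0.05 for 2 of them in the fit without the block, ATF3 and PPP1R15A, where 4.37% of all tested genes passed. On the adjusted p alone with the block, 3 were higher (PPP1R15A, ATF3 and DDIT4), beside 1.12% of tested genes, and 1 was lower (CHAC1), beside 3.27%. The median log2 difference of the 10 genes was 0.04, against -0.0027 over all tested genes. In the 3 replicate pairs the median was -0.03, 0.12 and 0.08.

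**Figure D1:**
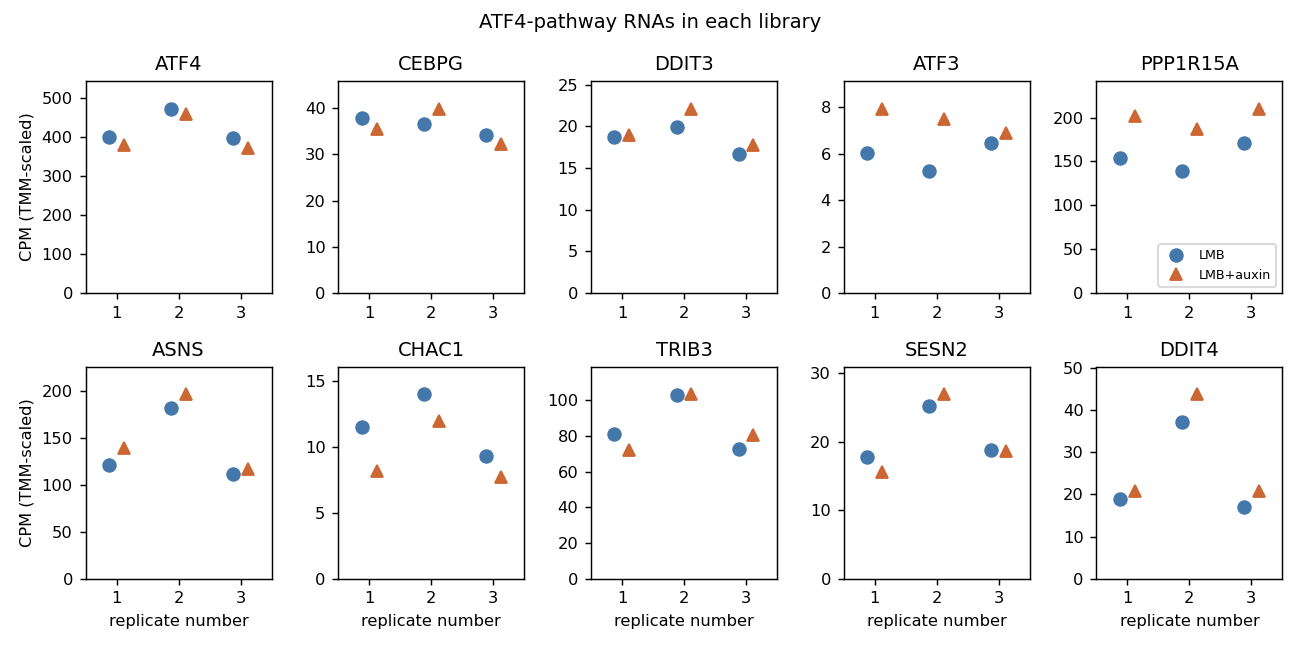
CPM (TMM-scaled, axis from 0) of each gene in each of the 6 libraries, by replicate number, with circles for LMB and triangles for LMB+auxin. PPP1R15A and ATF3 have all triangles above all circles, whereas DDIT4, ASNS and SESN2 are highest at replicate number 2 in both groups.

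The transcription factors came first in order of role. ATF4 (ENSG00000128272, chr22:39519695-39522683, plus strand, GRCh38, 3 exons in its canonical transcript), the factor that drives the response, was at 400.0, 472 and 398 CPM in LMB and at 379.8, 459 and 371 CPM in LMB+auxin. The groups overlapped, and within each pair the auxin library was slightly the lower. The log2 difference was -0.07 ± 0.10 (SE; edgeR adjusted p = 0.958), or -0.07 ± 0.04 with the block (edgeR adjusted p = 0.341). The 95% interval of the blocked difference, -0.16 to 0.01, lay well inside the 1.3-fold bar.

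CEBPG (ENSG00000153879, chr19:33373685-33382686, plus strand, 2 exons), the C/EBPγ partner with which ATF4 pairs, was at 37.9, 36.7 and 34.3 CPM in LMB and 35.6, 39.9 and 32.3 CPM in LMB+auxin. The highest and the lowest library were both LMB+auxin, so the groups overlapped. Its log2 difference was -0.01 ± 0.09 (edgeR adjusted p = 0.991), and with the block the interval ran from -0.14 to 0.10. It was the steadiest of the 10 genes over the 6 libraries, with an SD of 0.106 in log2 CPM.

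DDIT3 (ENSG00000175197, chr12:57516588-57521737, minus strand, 4 exons) encodes CHOP, a C/EBP-family factor linked to cell death after prolonged stress. It was at 18.8, 19.9 and 16.7 CPM in LMB and 19.0, 22.1 and 17.8 CPM in LMB+auxin. The auxin library was the higher in each of the 3 pairs, though in the first by a log2 difference of only 0.01, and the groups overlapped. The log2 difference was 0.09 ± 0.11 (edgeR adjusted p = 0.957) and with the block 0.09 ± 0.07 (edgeR adjusted p = 0.486). DDIT3 shares 355 exonic bases, 27.2% of its exon sequence, with MARS1 on the opposite strand, and 58 with MBD6. MARS1 averaged 6778 counts over 7028 exonic bases, which at an even coverage places 342 counts on the shared bases, equal to 57.9% of the 591 counts that DDIT3 averaged. Genes that lie inside the exons of a high gene on the opposite strand had a median of 1.48 times its counts per exonic base (196 pairs), and on the same strand 0.478 times (81 pairs). The strand and overlap settings of the counting are not given in the sources used here, and how much of the DDIT3 count came from MARS1 was not tested. The difference and interval of DDIT3 are those of its whole count, and may not bound the change of DDIT3 RNA itself.

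ATF3 (ENSG00000162772, chr1:212565334-212620777, plus strand, 4 exons), an early stress-induced factor that acts largely as a repressor, was the lowest of the 10 genes in CPM. Its values were 6.05, 5.27 and 6.49 CPM in LMB and 7.94, 7.49 and 6.91 CPM in LMB+auxin, from 165 to 236 counts per library. Every auxin library was above every LMB library, with the narrowest gap between replicates 3. On the log2 scale it differed by 0.32 ± 0.12 (edgeR adjusted p = 0.954). With the block it was 0.32 ± 0.10, with an interval of 0.12 to 0.52 (edgeR adjusted p = 0.0460; DESeq2 with the block, 0.465). This pass needed all 3 pairs, since edgeR's blocked adjusted p was 0.210, 0.338 and 0.0556 without replicates 1, 2 and 3 in turn.

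PPP1R15A (ENSG00000087074, chr19:48872212-48876059, plus strand, 3 exons), the GADD34 subunit that directs protein phosphatase 1 to eIF2, showed the clearest separation. It was at 154, 139 and 171 CPM in LMB and at 202, 187 and 210.1 CPM in LMB+auxin. All 3 auxin libraries lay above all 3 LMB libraries, and the lowest auxin library was the partner of the lowest LMB library. The means were 155 ± 15.8 and 199.6 ± 11.7 CPM (SD, n = 3 each). On the log2 scale they differed by 0.37 ± 0.09, with an interval of 0.17 to 0.56 (edgeR adjusted p = 0.891). With the block it was 0.37 ± 0.05, interval 0.28 to 0.46 (edgeR adjusted p = 1.1e-09), just short of the 1.3-fold bar. The pair differences were 0.39, 0.43 and 0.30 on the log2 scale. Leaving out replicates 1, 2 and 3 in turn, the blocked adjusted p from edgeR was 1.4e-09, 1.3e-04 and 1.9e-04, and without replicate 3 the difference of 0.41 passed the bar as well. DESeq2 with the block gave 0.38 (adjusted p = 2.6e-10).

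Separation of the groups, with every LMB+auxin library above every LMB library, was seen for 2 of the 10 genes, PPP1R15A and ATF3, beside 4.89% of all tested genes. None of the 10 had every auxin library below every LMB library, beside 1125 of all 16974 tested genes. PPP1R15A and ATF3 each had the other as nearest profile among the 10 (root mean square difference 0.0948 in centred log2 CPM). Both are named here for the same separation, so their likeness adds nothing to it. DDIT3 with CEBPG (0.0738) and ATF4 with CEBPG (0.0944) were nearer.

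**Figure D2:**
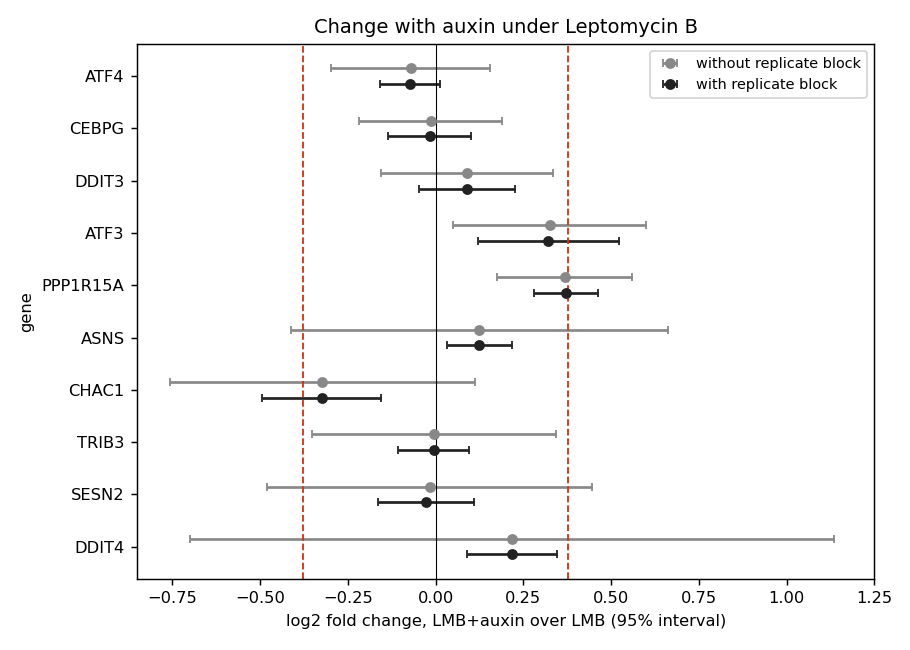
Log2 fold change of each gene, LMB+auxin over LMB, with its 95% interval, in the fits without (grey) and with (black) the replicate block; dashed lines mark a 1.3-fold change, 0.38 on the log2 scale. With the block the intervals of 7 genes lie inside the dashed lines, and those of PPP1R15A, ATF3 and CHAC1 reach past one. The interval of DDIT3 is that of a count that may include MARS1 reads. Without the block those of 4 genes lie inside (ATF4, DDIT3, TRIB3 and CEBPG).

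Among the targets that serve amino acid supply and redox balance, ASNS (ENSG00000070669, chr7:97851677-97872542, minus strand, 13 exons), asparagine synthetase, was at 122, 182 and 111 CPM in LMB and 139, 196 and 117 CPM in LMB+auxin. Both libraries numbered 2 were far above the rest, and the auxin library was the higher in each pair. The log2 difference was 0.12 ± 0.23 (edgeR adjusted p = 0.967), and with the block 0.12 ± 0.05 (edgeR adjusted p = 0.111), with an interval of 0.03 to 0.22. Without replicate 2 the blocked difference was 0.14 (edgeR adjusted p = 0.308). A long noncoding gene that covers 49.3% of its exon sequence on the same strand, ENSG00000284707, has no entry in the count table.

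CHAC1 (ENSG00000128965, chr15:40952962-40956512, plus strand, 3 exons), which breaks down glutathione and is a common readout of ATF4, was at 11.5, 14.0 and 9.29 CPM in LMB and 8.15, 11.9 and 7.72 CPM in LMB+auxin. The groups overlapped, but the auxin library was the lower in all 3 pairs, by 0.49, 0.23 and 0.26 on the log2 scale. LMB+auxin minus LMB gave a log2 difference of -0.32 ± 0.19 (edgeR adjusted p = 0.954). With the block it was -0.32 ± 0.09, interval -0.49 to -0.15 (edgeR adjusted p = 0.0122; DESeq2 with the block, 0.352). Without replicates 1, 2 and 3 in turn the blocked adjusted p from edgeR was 0.149, 0.0516 and 0.114. CHAC1 was thus lower where PPP1R15A and ATF3 were higher, and the 10 genes did not share a direction.

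TRIB3 (ENSG00000101255, chr20:362835-397559, plus strand, 4 exons) encodes a pseudokinase that restrains ATF4 and AKT signalling. It was at 81.4, 103 and 73.0 CPM in LMB and 72.1, 103 and 80.7 CPM in LMB+auxin. The libraries numbered 2 were level with each other and above the other 4, and the remaining pairs went opposite ways. On the log2 scale it differed by -0.01 ± 0.15 (edgeR adjusted p = 0.998), and its sign changed with the scaling (0.0015 with DESeq2 size factors). The blocked interval of -0.11 to 0.10 bounds the difference below the bar.

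SESN2 and DDIT4 both encode inhibitors of the growth kinase mTORC1. SESN2 (ENSG00000130766, chr1:28259518-28282491, plus strand, 10 exons), a leucine-sensing sestrin, was at 17.7, 25.2 and 18.9 CPM in LMB and 15.6, 26.9 and 18.6 CPM in LMB+auxin. Replicate 2 was the highest in both groups and the pairs did not share a direction. Without the block the log2 difference came to -0.02 ± 0.20 (edgeR adjusted p = 0.994), with a blocked interval of -0.16 to 0.11.

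DDIT4 (ENSG00000168209, chr10:72273919-72276036, plus strand, 3 exons), also known as REDD1, was at 18.8, 37.2 and 17.0 CPM in LMB and 20.7, 43.7 and 20.7 CPM in LMB+auxin. The libraries numbered 2 averaged 2.08 times the others, and within each pair the auxin library was the higher. The log2 difference was 0.22 ± 0.39 (edgeR adjusted p = 0.966). With the block it was 0.22 ± 0.06, interval 0.09 to 0.35 (edgeR adjusted p = 0.0303; DESeq2 with the block, 0.317). Without replicates 1, 2 and 3 in turn, edgeR's blocked adjusted p was 0.00582, 0.205 and 0.418.

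The range between the highest and lowest replicate number was larger than the difference between treatments for most of these genes. A range over 3 numbers and a difference between 2 groups are unlike measures, so this alone does not set these genes apart. The median range was 1.28-fold for the 10 genes and 1.16-fold for all tested genes. The replicate number was tested with 2 degrees of freedom in the blocked fit. A gene was called when its highest and lowest number also differed by at least 1.3-fold. By this edgeR test 5 of the 10 genes differed between replicate numbers (DDIT4, ASNS, SESN2, CHAC1 and TRIB3), beside 14.3% of all tested genes. DDIT4 differed 2.15-fold (edgeR adjusted p = 1.2e-27), ASNS 1.65-fold (1.9e-21), SESN2 1.57-fold (3.8e-10), CHAC1 1.53-fold (2.6e-06) and TRIB3 1.34-fold (8.8e-10). On the adjusted p alone ATF4 (1.21-fold, edgeR adjusted p = 4.2e-06), PPP1R15A (1.17-fold, 0.00239) and DDIT3 (1.22-fold, 0.0171) also passed, against 33.8% of tested genes. CEBPG (edgeR adjusted p = 0.0625) and ATF3 (0.668) did not.

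The 5 called genes were each highest in replicate 2 of both groups. Counting all 10, 7 were highest in replicate 2 of both groups, beside 26.9% of tested genes, a count chosen after the values were seen. PPP1R15A was the exception in kind, lowest in replicate 2 of both groups, and ATF3 was lowest there in LMB. The mean of the 10 genes in centred log2 CPM was 0.16 in replicate 2 of LMB and 0.30 in replicate 2 of LMB+auxin, and between -0.17 and -0.09 in the other 4 libraries. Without replicate 2 the test called 0 of the 10 genes and 160 genes in all, against 2434 with it. What distinguished the replicate numbers (culture, day or preparation) is not given in the sources used here and was not tested.

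**Figure D3:**
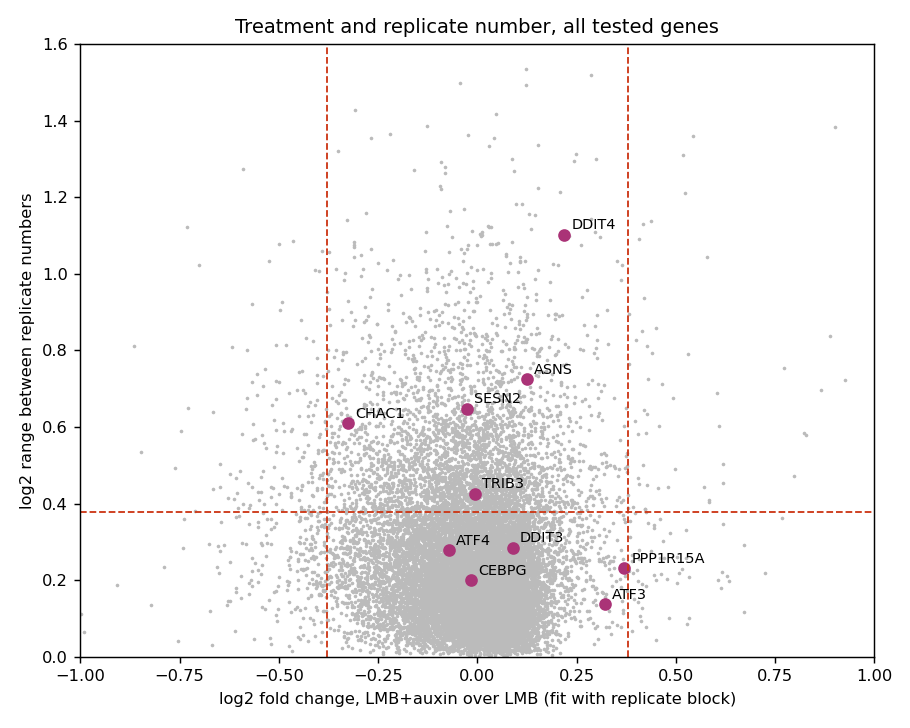
Each grey point is one of the 16974 tested genes, with the log2 fold change of LMB+auxin over LMB from the blocked fit on the x axis and the log2 range between replicate numbers on the y axis; 13 genes lie outside the axes. Dashed lines mark 1.3-fold; the labelled DDIT4, ASNS, SESN2, CHAC1 and TRIB3 lie above the horizontal line, and PPP1R15A and ATF3 lie near the right vertical line and below the horizontal one.

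Levels of different genes were compared per length, as CPM per kilobase of annotated exon. ATF4 was the most abundant at a mean of 158 CPM per kilobase over the 6 libraries (142 to 181), above 98.4% of tested genes. PPP1R15A followed at 51.6, then ASNS at 29.5 and TRIB3 at 26.0, whose ranges overlapped. DDIT3 at 14.6, DDIT4 at 12.4 and CEBPG at 8.90 formed a run in which each neighbour overlapped the next. The place of DDIT3 is uncertain, since taking off the MARS1 count placed on the shared bases would leave 6.13 CPM per kilobase. SESN2 at 5.92 and CHAC1 at 5.09 overlapped, and ATF3 at 1.67 CPM per kilobase, above 24.3% of tested genes, was below all others. The regulator ATF4 was at the top of the order and ATF3, which it induces, at the bottom. Whether these levels are raised or basal cannot be told apart without a culture free of the drug.

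**Figure D4:**
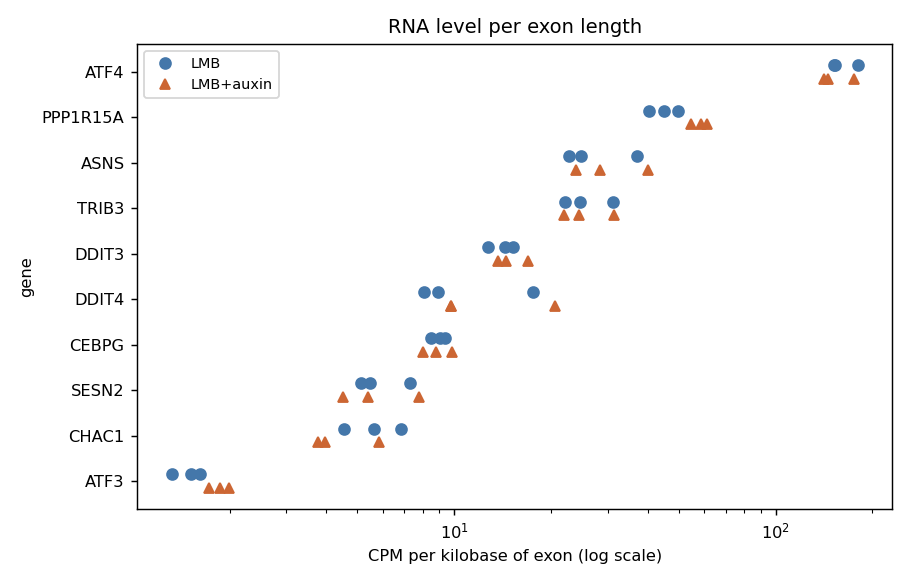
CPM per kilobase of exon (log axis) of each gene in each library, ordered by mean level, with circles for LMB and triangles for LMB+auxin. ATF4 lies between 142 and 181 and ATF3 between 1.32 and 1.99; the horizontal spread of DDIT4 comes from the 2 libraries numbered 2.

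The wider pathway was read from 7 lists of 120 genes, of which 113 were tested. Without the block edgeR called 0 of these 113, with 8 at an unadjusted p under 0.05 (4.37% of all tested genes), and with the block 1 (FOS). On the blocked adjusted p alone 6 were higher and 9 lower, beside 1.12% and 3.27% of all tested genes. With DESeq2 and the block 2 were higher (GDF15 and HSPA5) and 1 lower (JUNB), and without replicate 2 edgeR gave 1 higher (FOS) and 3 lower (JUNB, MAFF and MAFK). By replicate number, 28 of 113 (24.8%) were called, beside 14.3%, and 60 (53.1%) were highest in replicate 2 of both groups, beside 26.9%. Without replicate 2 the number called fell to 4 (FOS, GDF15, JUN and CEBPB).

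Upstream of ATF4 lie the eIF2 kinases, eIF2, its exchange factor eIF2B and the phosphatase subunits, and all 17 of these genes were tested. Their median log2 difference was 0.04, with 0 called with or without the block and 1 (EIF2AK2) at an unadjusted p under 0.05. The RNA-activated kinase gene EIF2AK2 was the highest, at 144, 145 and 154 CPM in LMB and 174, 159 and 164 CPM in LMB+auxin. Its blocked log2 difference was 0.17 ± 0.05 (edgeR adjusted p = 0.0215), and EIF2AK4, the GCN2 kinase that senses uncharged tRNA, differed by 0.15 ± 0.05 (0.0495). With DESeq2 and the block neither passed, at adjusted p of 0.145 and 0.181. The lowest was PPP1CA, a catalytic subunit of protein phosphatase 1, at -0.03 ± 0.08 without the block. By replicate number 0 of the 17 were called, with 7 at an adjusted p under 0.05 without the fold bar.

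Of 22 bZIP partners and relatives, 21 were tested, BATF3 being too low. This list had the lowest median of the 7, -0.11, with 7 genes above 0 and 14 below. FOS, an AP-1 subunit and immediate early gene, was at 11.4, 18.5 and 16.9 CPM in LMB and 14.1, 35.4 and 22.4 CPM in LMB+auxin. FOS was the higher with auxin in each pair, by 0.30, 0.93 and 0.40 on the log2 scale. With the block FOS rose by 0.58 ± 0.08 (edgeR adjusted p = 1.2e-06; DESeq2 with the block, 0.185), while without it the difference was 0.61 ± 0.32 (edgeR adjusted p = 0.954). On the blocked adjusted p alone 6 were lower: JUNB, MAFF, MAFK, CEBPD, JUN and MAFG, named after their values were seen. JUNB, another AP-1 subunit, had a blocked difference of -0.37 ± 0.06 (edgeR adjusted p = 1.7e-06), and the small Maf gene MAFF one of -0.34 ± 0.07 (4.2e-04). Of these 6, DESeq2 with the block passed JUNB alone (adjusted p = 0.00114), gave 0.101 to 0.438 for MAFF, MAFK, JUN and MAFG, and gave no adjusted p for CEBPD. Without replicate 2 the blocked difference was 0.37 ± 0.10 for FOS, below the fold bar, and -0.40 ± 0.08 for JUNB, past it. By replicate number 7 of 21 (33.3%) were called, FOS at 2.06-fold and JUNB at 1.82-fold among them.

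The amino acid genes downstream of ATF4 gave no treatment call in either fit, and their differences below are without the block unless stated. Of 14 synthesis and one-carbon genes 13 were tested (CBS was too low), with a median of 0.04 and 0 at an unadjusted p under 0.05. CTH, which makes cysteine from cystathionine, was the highest at 0.14 ± 0.11 and ALDH1L2, a mitochondrial folate enzyme, the lowest at -0.22 ± 0.22. Of 12 transporter genes 11 were tested (SLC7A3 was too low), with a median of 0.02 and 0 at an unadjusted p under 0.05. SLC38A1, a glutamine carrier, was the highest at 0.10 ± 0.06, and SLC6A9, a glycine carrier, the lowest at -0.07 ± 0.26.

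All 13 aminoacyl-tRNA synthetase genes were tested. Their log2 difference was above 0 in 13 of 13 without the block and in 12 of 13 with it, beside 49.2% of all tested genes without it. The median without the block was 0.07, and none had an unadjusted p under 0.05 in that fit. Without replicate 2 the blocked differences of AARS1 (-0.0010), MARS1 (-0.0061) and VARS1 (-0.071) were below 0, and the others above it. TARS1, the threonine enzyme, was the highest without the block at 0.15 ± 0.07 (edgeR adjusted p = 0.954). With the block TARS1 had 0.14 ± 0.04 (edgeR adjusted p = 0.0367; DESeq2 with the block, 0.202), and LARS1, the leucine enzyme, was level with it at 0.15. VARS1, the valine enzyme, was the lowest at 0.01 ± 0.13, and -0.0046 with the block.

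By replicate number, PHGDH, the first enzyme of serine synthesis, averaged 129 CPM in replicate 1, 258 in replicate 2 and 133 in replicate 3, a 2.00-fold range (edgeR adjusted p = 7.8e-36) that was 1.03-fold without replicate 2. SLC6A9 differed 1.71-fold and AARS1, the alanine enzyme, 1.52-fold. The libraries numbered 2 were highest in both groups for 11 of 13 synthesis, 8 of 11 transporter and 10 of 13 synthetase genes. This held for 26.9% of all tested genes. In the remaining lists it held for 12 of 18 other ATF4 and CHOP targets and 8 of 21 bZIP genes. It also held for 7 of 20 XBP1 and ATF6 genes and 4 of 17 eIF2 genes. The list genes named for their difference by replicate number were chosen after the values were seen.

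Of 22 other ATF4 and CHOP targets 18 were tested, FGF21, NUPR1, STC2 and INHBE being too low. Their median was 0.02, with 0 called in either fit and 0 at an unadjusted p under 0.05. GDF15, a secreted stress cytokine, was at 104, 232 and 138 CPM in LMB and 110.0, 305 and 164 CPM in LMB+auxin. Its groups overlapped, each auxin library was above its partner, and the blocked difference was 0.25 ± 0.05 (edgeR adjusted p = 2.0e-04; DESeq2 with the block, 0.00678). Without replicate 2 it was 0.18 ± 0.07 (edgeR adjusted p = 0.175). KLHL24, the lowest, had -0.24 ± 0.07 with the block (edgeR adjusted p = 0.0187; DESeq2 with the block, 0.335). By replicate number 9 of 18 (50%) were called, with GDF15 at 2.49-fold (edgeR adjusted p = 2.7e-37) and VEGFA, the angiogenic factor, at 1.56-fold.

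The XBP1 and ATF6 arms belong to the unfolded protein response of the endoplasmic reticulum, and all 20 genes of that list were tested. The median was 0.04, with 0 called in either fit and 1 (DNAJB9) at an unadjusted p under 0.05. HSPA5, the chaperone BiP, was the highest, with a blocked difference of 0.18 ± 0.04 (edgeR adjusted p = 0.00587; DESeq2 with the block, 0.0263; edgeR without replicate 2, 0.209). DNAJB9, a co-chaperone of BiP, was the lowest, with -0.32 ± 0.07 (edgeR adjusted p = 0.00188; DESeq2 with the block, 0.208; edgeR without replicate 2, 0.201). By replicate number 4 of 20 (20%) were called, beside 14.3% of all tested genes. They were HERPUD1 (1.76-fold), HSPA5 (1.47-fold), XBP1 (1.47-fold) and ERN1 (1.31-fold). Without replicate 2 their ranges were 1.01-fold, 1.12-fold, 1.20-fold and 1.13-fold in that order.

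**Figure D5:**
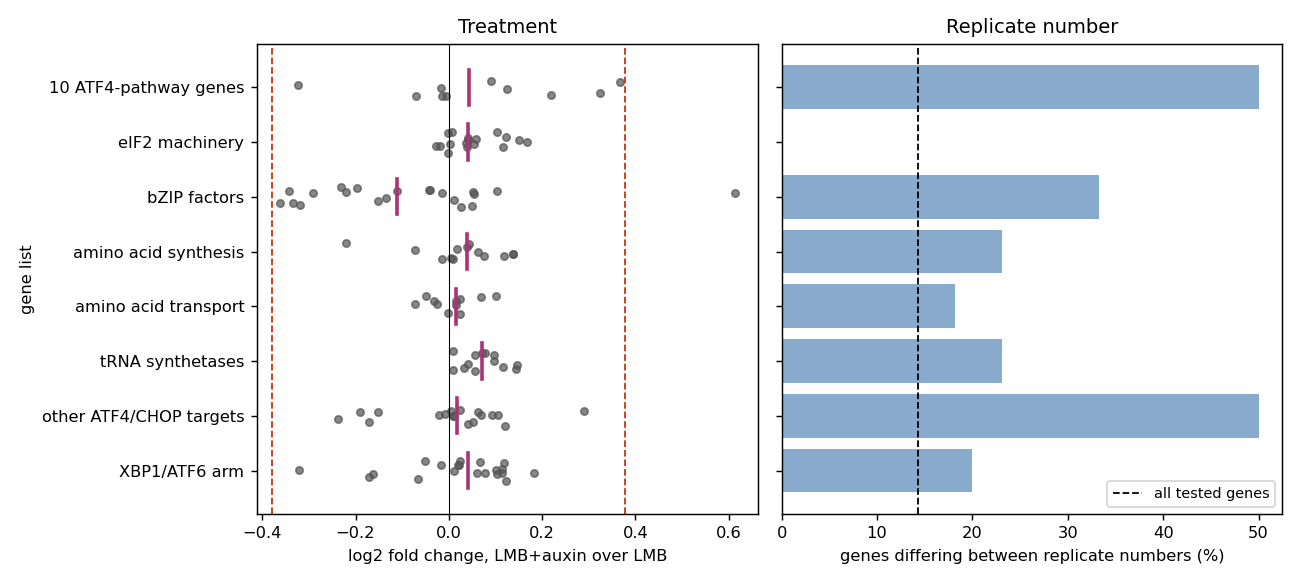
Left, the log2 fold change of each tested gene, LMB+auxin over LMB without the block, in the 10 genes and the 7 pathway lists, with the list median as a vertical bar and a 1.3-fold change as dashed lines. Right, the percentage of tested genes in each list that differed between replicate numbers, which is 50% for the 10 genes and 0% for the eIF2 machinery, beside 14.3% for all tested genes (dashed).

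Over the 6 libraries, the genes with the profile nearest to that of ATF4 were GALT, PRKD2, JUND, SNORD32A and TSPOAP1-AS1. Their root mean square differences from ATF4 in centred log2 CPM were 0.0133 to 0.0219, among 16850 genes compared. Nearest to the mean profile of the 10 genes were SARS1, ARHGEF2, SBF2, IGSF3 and ENSG00000267484, at 0.0182 to 0.0317. SARS1, the serine enzyme, belongs to the synthetase list, and JUND to the bZIP list. The other neighbours are in none of the lists. Both reference profiles were highest in replicate 2 of both groups, as were 26.9% of tested genes.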

How the data were processed

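Total RNA of 6 DLD-1 cultures was depleted of ribosomal RNA, made into stranded libraries and sequenced as paired reads. The deposited table holds whole-number counts per Ensembl gene, which the authors made with STAR and featureCounts. The study's methods name Ensembl release 87, and the submitters' processing notes list CASAVA 1.8.2, STAR 2.6.1c, featureCounts 1.5.2 and GRCh38. Counts are not normalised, and 32.4% of the 58051 identifiers have no count. The methods describe independent biological replicates, 3 per group, and groups were taken from the sample titles. The titles of both groups name 2 h, whereas the study's methods give 3 h of Leptomycin B, the time printed here.

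Symbols came from GENCODE 44 (98.1% of identifiers matched). Genes above 1 CPM in at least 3 libraries were tested with edgeR 4.0.16 (TMM scaling, robust quasi-likelihood fit, Benjamini-Hochberg adjustment over 16974 genes) in R 4.3.3. The 1.3-fold bar is the 30% change of the study. CPM values are TMM-scaled. DESeq2 1.42.0 and limma 3.58.1 were alternatives, with other scalings, no filter, a replicate block and each library left out. The replicate numbers pair the samples by a rule on data: every same-number pair of deviations correlated above 0.1 (0.544, 0.707 and 0.289). LMB replicate 1 with LMB+auxin replicate 3 (0.153) and LMB replicate 3 with LMB+auxin replicate 1 (0.151) passed 0.1 as well. The rule alone therefore does not separate numbers 1 and 3, although the same-number correlations were higher. The labels do not say what a number marks. Biological variation, as edgeR's common coefficient, came to 0.0989 unblocked and 0.0406 blocked. The fits were tested on simulated data.

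The 10 genes and the pathway lists were chosen with earlier results of these data known. Genes named in a list were those called in either fit, and otherwise the highest and lowest by log2 difference without the block. Other list genes, named for a blocked adjusted p or for replicate number, were chosen after their values were seen. Similar genes were the 5 with the smallest root mean square difference at a mean of at least 1 CPM. No protein sequences were used here. Motifs were searched in RefSeq promoters of 300 bases. With 3 libraries per group, precision is limited by their number, and p-values measure the spread between these cultures of 1 clone.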

Additional observations from a re-analysis of the deposited data

How the results depend on the processing

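Under the 18 alternatives, 180 values of the 10 genes were recomputed, of which 21 changed sign and 1 passed the call threshold. ATF3, CHAC1 and PPP1R15A kept their sign throughout. TRIB3 became 0.0015 with DESeq2 size factors, 0.0013 with the DESeq2 Wald test and 0.0011 with DESeq2 and the block. The other 18 sign changes came from leaving out libraries. With 1 library left out, ATF4 ran from -0.17 to 0.023, DDIT3 from -0.0017 to 0.16, TRIB3 from -0.16 to 0.15, ASNS from -0.11 to 0.38, SESN2 from -0.27 to 0.16, DDIT4 from -0.23 to 0.67 and CEBPG from -0.093 to 0.063. In the block without replicate 1, TRIB3 was 0.075, SESN2 0.042 and CEBPG 0.020, and without replicate 3 CEBPG was 0.023. None of the sign changes reached an adjusted p under 0.05. The median of the 10 genes ran from -0.14 (without LMB+auxin replicate 2) to 0.16 (without LMB replicate 2).

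Genes called in all, 1 by edgeR without a block, numbered 202 with the replicate block (51 higher), 253 with the block and library size alone, 31 with the block and DESeq2, 39 without the filter, 11 with DESeq2, and 0 with library size alone, where 736 genes had an unadjusted p under 0.05. Dropping any 1 library gave 0 to 5, and dropping replicates 1, 2 and 3 in the block 140, 160 and 137. The 10 genes gave 0 to 1 call in the block when a number was left out, the 1 being PPP1R15A without replicate 3, and 0 otherwise. A count of those past the adjusted p alone was added after the data were seen: 0 without the block, 4 with it or with the block and library size alone, 1 with the block and DESeq2, 1 without the filter, and 1 to 2 in the block with a number left out. Calls in the bZIP list rose from 0 to 1 with the block, 2 with the block and library size alone, and 1 to 3 in the block with a number left out. The XBP1 and ATF6 list had 0 to 1. Calls by replicate number, 2434, were 1155 with DESeq2 and 1234, 160 and 2274 without replicates 1, 2 and 3, and for the 10 genes 0 to 5, being 0 without replicate 2. The causes were not tested. Among the 10 genes and the lists, the block changed no other call. ATF3 rests on 165 to 236 counts per library.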
